A study of Mus musculus with 13 samples.

Results

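The genes described here encode the release machinery of the presynaptic terminal: synaptic vesicle proteins, SNARE proteins and their regulators, scaffolds of the active zone, and vesicular glutamate transporters. They were chosen by name, 31 genes of the 36287 in the table, and each name matched 1 row. All 31 passed the filter on low counts that left 22065 genes for testing. Their transcripts were measured by bulk mRNA sequencing of hippocampus from 5xFAD mice, a transgenic model of amyloid deposition whose transgenes are driven by the neuronal Thy1 promoter. All groups carry these transgenes, and no wild-type libraries were used here. The mice received saline, the antibody Aducanumab, which binds amyloid beta aggregates, or ACLP-NT. ACLP-NT, known here by its code name only, is the nanomedicine of a series whose title concerns microglial lysosomes. Saline had 4 libraries (18, 19, 32 and 38), Aducanumab 4 (24, 50, 56 and 58) and ACLP-NT 5 (17, 27, 49, 53 and 55). These numbers are those in the sample titles. The labels used here state no dose, duration, route, age or sex.

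A nerve terminal stores transmitter in synaptic vesicles and releases it when calcium enters. Vesicles are filled with glutamate by vesicular transporters and held in a reserve by synapsins. At the active zone the scaffolds Bassoon, Piccolo, RIM and ELKS hold vesicles close to calcium channels, and Munc13 prepares them for release. Fusion is driven by the SNARE proteins syntaxin-1, SNAP-25 and VAMP2, clamped by complexins and triggered by the calcium sensor synaptotagmin-1, after which NSF takes the SNARE complex apart. Loss of synapses and of presynaptic proteins in the hippocampus is a known feature of Alzheimer's disease and of amyloid mouse models.

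The promoters of the 2 glutamate transporter genes are shown because Slc17a6 varied most between libraries of the 31 genes and Slc17a7 is its more abundant relative, and that of Syn1 because it has long been used to drive expression in neurons. RefSeq promoter entries (GRCm38.p6) matched 25 of the 31 genes. Each sequence is the 250 bases before the RefSeq start, on the gene's strand, 5′ to 3′. Capitals mark matches on either strand to the GC box GGGCGG in both Slc17 promoters, and in Syn1 to TTCAGCACC, the left arm of the RE1 element of neuronal genes, and to the cyclic AMP response element TGACGTCA. These Slc17a7 bases lie at chr7:45163671-45163920 (+), those of Slc17a6 at chr7:51621580-51621829 (+), the first of 2 starts listed for that gene, and those of Syn1 at chrX:20920919-20921168 (-).
Slc17a7: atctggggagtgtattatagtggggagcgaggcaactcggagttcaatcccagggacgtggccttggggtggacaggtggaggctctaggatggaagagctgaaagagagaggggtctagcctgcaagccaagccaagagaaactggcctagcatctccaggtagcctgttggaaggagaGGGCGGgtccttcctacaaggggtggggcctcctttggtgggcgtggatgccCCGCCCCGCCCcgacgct
Slc17a6: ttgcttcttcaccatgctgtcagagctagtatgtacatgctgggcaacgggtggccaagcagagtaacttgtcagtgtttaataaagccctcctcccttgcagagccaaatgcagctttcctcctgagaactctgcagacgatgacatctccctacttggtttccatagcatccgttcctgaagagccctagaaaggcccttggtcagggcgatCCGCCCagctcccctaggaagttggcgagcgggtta
Syn1: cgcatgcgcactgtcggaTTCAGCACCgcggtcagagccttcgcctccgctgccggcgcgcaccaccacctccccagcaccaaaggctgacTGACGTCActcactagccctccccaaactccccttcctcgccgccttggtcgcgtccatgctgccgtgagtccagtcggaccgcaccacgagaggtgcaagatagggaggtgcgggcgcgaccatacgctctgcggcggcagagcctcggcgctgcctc
The Slc17a7 window held 3 GC box matches, 2 of which share a base, and 61.2% of its bases were G or C. The Slc17a6 window held 1 match and was 53.2% G or C. Over all 32851 promoter windows of this length, 32.7% held a GC box, 1.55% the cyclic AMP response element and 0.301% the left RE1 arm. Of the 35 windows listed for 25 presynaptic genes, 19 held a GC box, and Syn1 alone held each of the other motifs. The deposited table, whose genome build is not named and whose coordinates are not those of GRCm38.p6, places Slc17a7 (ENSMUSG00000070570) at chr7:44813373-44825566, Slc17a6 (ENSMUSG00000030500) at chr7:51271754-51320867, Syn1 (ENSMUSG00000037217) at chrX:20726750-20787243, Stx1a (ENSMUSG00000007207) at chr5:135052336-135079954, Rph3a (ENSMUSG00000029608) at chr5:121078562-121148155, Rims1 (ENSMUSG00000041670) at chr1:22356475-22844805, Rims2 (ENSMUSG00000037386) at chr15:39061656-39547768 and Syt2 (ENSMUSG00000026452) at chr1:134574415-134690331. The 3 motifs do not overlap one another in these sequences, and a match describes the letters, not binding.

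Total counts per library ran from 53642019 (ACLP-NT 53) to 69734713 (saline 38). Counts of the presynaptic genes were from 171 to 94738 in a library. Counting error is thus small beside the spread between libraries for all but the least abundant. Markers fixed for hippocampal subfields, such as Prox1 of the dentate gyrus and Wfs1 of CA1, were above 0 in every library (15 of 15 markers, 843 to 1235 CPM summed). The libraries differed in markers of tissue beside the hippocampus: summed choroid plexus markers ran from 57.9 to 5561 CPM over the libraries. The score of a marker list is its mean centred log2 CPM in a library. For markers of hippocampal subfields it ran from -0.37 to 0.058 for saline, -0.14 to 0.18 for Aducanumab, -0.019 to 0.27 for ACLP-NT. Markers of all neurons gave -0.058 to 0.16 for saline, -0.20 to 0.11 for Aducanumab, -0.12 to 0.025 for ACLP-NT. The neocortex list spanned -0.27 to 0.72 for saline, -0.39 to 0.13 for Aducanumab, -0.34 to 0.27 for ACLP-NT. For markers of choroid plexus it ran from -3.42 to 2.28 for saline, -2.89 to 2.38 for Aducanumab, -2.999 to 2.23 for ACLP-NT. Choroid plexus thus varied most, and within every group. Markers of microglia gave 0.053 to 0.39 for saline, -0.21 to 0.20 for Aducanumab, -0.57 to 0.11 for ACLP-NT. The astrocytes list spanned 0.021 to 0.13 for saline, -0.10 to 0.16 for Aducanumab, -0.15 to -0.017 for ACLP-NT. For markers of oligodendrocytes it ran from -0.19 to 0.21 for saline, -0.16 to 0.24 for Aducanumab, -0.49 to 0.30 for ACLP-NT. Markers of meninges and vessels gave -0.44 to 0.45 for saline, -0.37 to 0.78 for Aducanumab, -0.75 to 0.24 for ACLP-NT. The blood list spanned -0.39 to 0.28 for saline, -0.37 to 1.12 for Aducanumab, -0.84 to 0.44 for ACLP-NT. The choroid plexus list had 1 marker at 0 in a saline library and 1 in an ACLP-NT library, and these other lists had none. All 12 microglia markers lay below saline in both treatments, with medians of -0.36 in ACLP-NT and -0.28 in Aducanumab. At an unadjusted p under 0.05 in edgeR were 10 in ACLP-NT (83.3%, against 5.88% of all genes tested). In Aducanumab there were 3 (25%, against 4.68%), and 0 passed after adjustment in either. Markers of hippocampal subfields lay above saline for 15 of 15 in ACLP-NT (median 0.23) and for 14 of 15 in Aducanumab (median 0.18). At an unadjusted p under 0.05 were 6 in ACLP-NT (40%, against 5.88% of all genes tested). In Aducanumab there were 3 (20%, against 4.68%), 2 higher and 1 lower, and 0 passed after adjustment in either. Choroid plexus markers lay above saline for 15 of 15 in each treatment, with medians of 0.79 and 0.82 and 0 at an unadjusted p under 0.05. The part of these shifts in the presynaptic values was not tested. As this is bulk tissue, fewer neurons and less RNA per neuron cannot be told apart. The values are of RNA, and neither presynaptic protein nor the number of terminals was measured here. CPM are counts scaled to library size with TMM factors, and are compared between libraries. FPKM, which also divide by gene length, are compared between genes.

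Per length, the most abundant presynaptic transcript was Cplx2, which encodes the clamp protein complexin-2, with a mean of 240.8 FPKM (SD 17.6, n = 13 libraries, range 214 to 276). Slc17a7, the vesicular glutamate transporter VGLUT1 of hippocampal and cortical excitatory neurons, followed at 223 FPKM, then Cplx1 at 196, Vamp2 at 179 and Snap25 at 171 FPKM. Rab3a, the vesicle GTPase, stood at 153 FPKM, beside the vesicle protein synaptophysin (Syp, 151) and synapsin I (Syn1, 149). These 8 genes were higher than at least 99.3% of the genes tested. The ranges of neighbours in this order overlapped for 24 of 30 neighbouring pairs, so the order is one of tiers rather than of single genes.

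Gaps between neighbours that did not overlap lay below Sv2a (71.7 FPKM), Syt7 (45.7), Erc2 (19.2), Pclo (9.91), Rims2 (6.26) and Syt2 (1.75). The long scaffold genes Bsn and Pclo had 22.0 and 9.91 FPKM. At the bottom were Sv2c (3.51 FPKM), Slc17a6 (2.40), Syt2 (1.75) and Syn3, the synapsin of developing neurons, at 0.501 FPKM. Within gene pairs the usual hippocampal form led in each library but for the complexins. Vamp2 was 12.4 to 20.7 times Vamp1 in FPKM, Slc17a7 was 31.2 to 507 times Slc17a6, and Syt1 was 35.6 to 197 times Syt2. Cplx2 was 0.966 to 1.39 times Cplx1, and fell below it in saline 18.

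**Figure D1:**
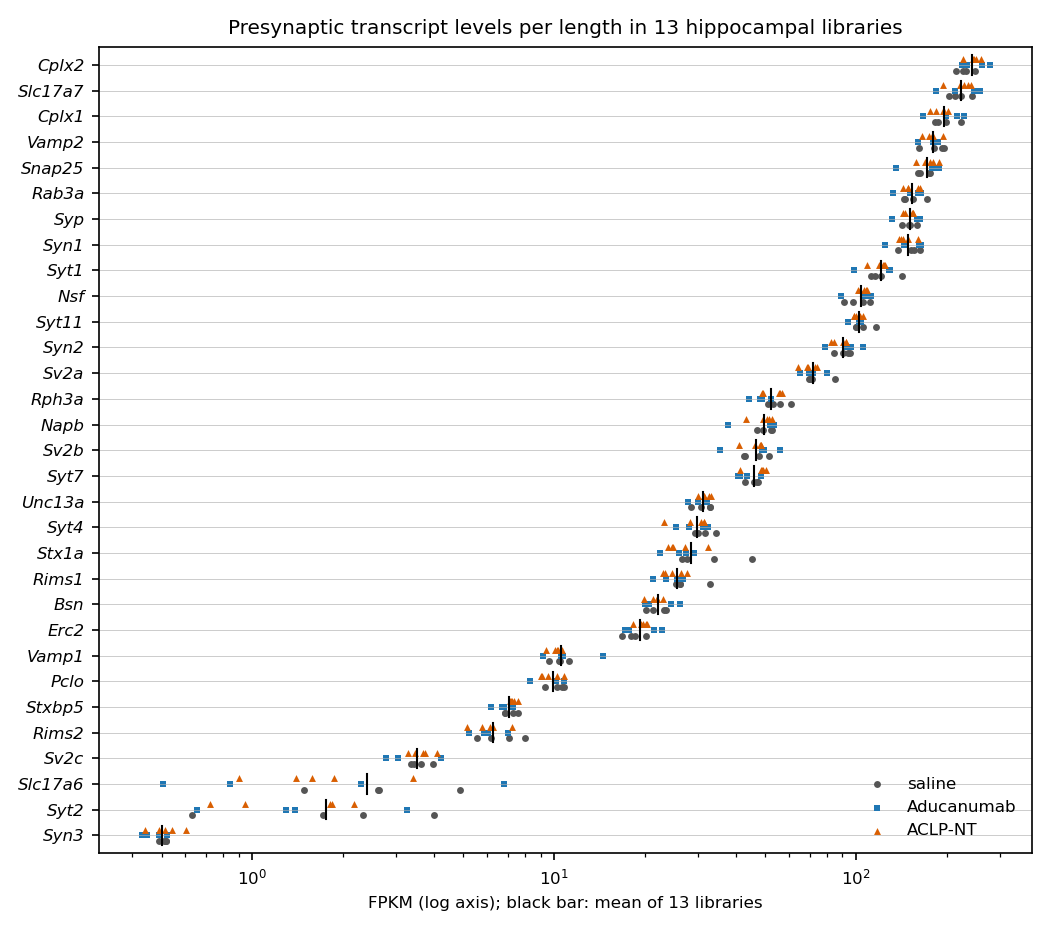
FPKM of each presynaptic gene on a log axis, ordered by mean, with 1 point per library, coloured by treatment group, and a black bar at the mean of 13 libraries. From Cplx2 at 240.8 FPKM to Syn3 at 0.501 FPKM the points of a gene sit close together, apart from Slc17a6 and Syt2, whose points spread widely in every group.

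ACLP-NT against saline asks whether the nanomedicine changed transcripts of the release machinery. No presynaptic gene passed: 0 of 31 had an adjusted p under 0.05 in the edgeR quasi-likelihood test, against 0% of all 22065 genes, and the smallest adjusted p was 0.822, for Stx1a. DESeq2 and limma on FPKM also called 0 of 31. At an unadjusted p under 0.05 there was 1 gene, Stx1a (3.23% of the 31, against 5.88% of all genes tested). Of the 31 genes, 20 had a log2 fold change below 0, where 50.6% of all genes did, and the median was -0.033 against -0.0015 over all genes. In no case were the 4 saline and 5 ACLP-NT libraries free of overlap, which 2.26% of all genes were.

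The precision is high enough to bound most of these changes. For 28 of 31 genes the 95% interval of the fold change lay within 25% of no change in either direction, and for 28 the estimate itself was under 10%. Leaving out Slc17a6 and Syt2, estimates ran from -20.2% (Stx1a) to 6.81% (Erc2), with standard errors of 0.0524 to 0.146 on the log2 scale. For Syp the log2 fold change was -0.0038 (95% interval -0.15 to 0.14) and for Snap25 0.050 (-0.14 to 0.24). Without saline 38 the median was -0.072, and without saline 18 it was -0.0014.

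Aducanumab against saline asks the same of the antibody. Again 0 of 31 genes passed in edgeR (0% of all genes), the smallest adjusted p was 0.9997, and DESeq2 and limma on FPKM called 0 of 31. At an unadjusted p under 0.05 there were 2 genes, Stx1a and Rph3a, both lower (6.45% of the 31, against 4.68% of all genes tested). Of the 31 genes, 20 lay below saline, against 48.7% of all genes, with a median log2 fold change of -0.039 against 0.0036. No gene's groups were free of overlap, which 2.58% of all genes were. For 26 of 31 genes the 95% interval lay within 25% of no change. This comparison shares its 4 saline libraries with the one before.

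The sign of that median rested on single libraries: it was -0.082 without saline 38, 0.026 without saline 18, and 19 of 31 genes lay above saline without Aducanumab 58. In that last setting the genes at an unadjusted p under 0.05 were Vamp1, Cplx2 and Erc2 on the higher side and Rph3a and Sv2c on the lower, and 0 passed. Of all genes tested in that setting, 1282 of 22523 had an unadjusted p under 0.05 in edgeR, and the median was 0.0003. Aducanumab 58 was the lowest library for 21 of the 31 genes, so leaving it out raises most of their Aducanumab means. ACLP-NT against Aducanumab called 0 of 31 (0% of all genes, smallest adjusted p 1), and 0 of 31 had an unadjusted p under 0.05, where 3.24% of all genes did. Of the 31 genes 16 were lower in ACLP-NT, against 52.4% of all genes. The groups overlapped for each gene, while 1.34% of all genes had groups that did not. The interval lay within 25% for 26 genes.

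**Figure D2:**
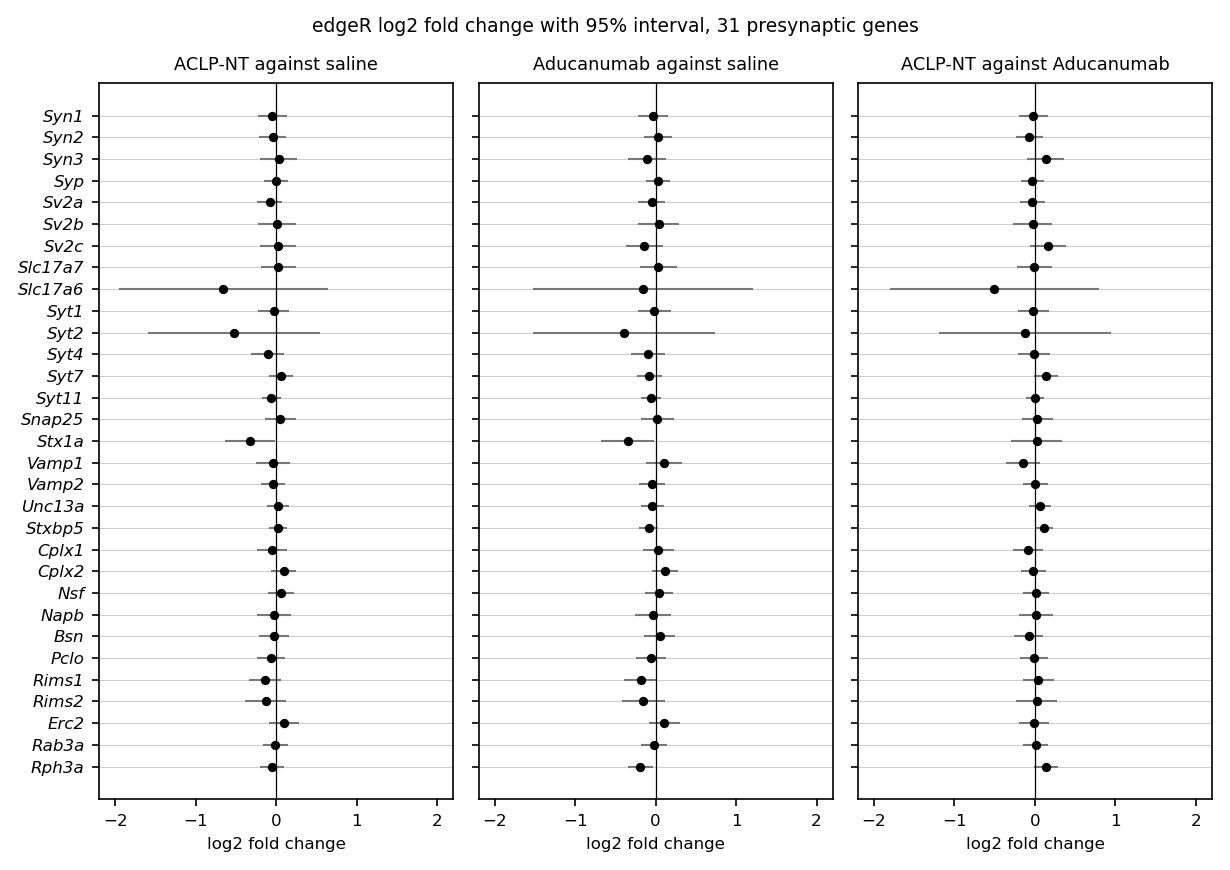
Log2 fold change (point) with its 95% interval (line) from edgeR for the 31 genes in each of the 3 comparisons, ordered by role from synapsins at the top to Rab3a and Rph3a at the bottom. Most points lie within 0.2 of 0, and the intervals of Slc17a6 and Syt2 are many times wider than the rest. The upper end of the interval lies just below 0 for Stx1a in both comparisons with saline, and for Rph3a in Aducanumab against saline.

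Synapsins bind vesicles and release them from the reserve when phosphorylated. Against saline the log2 fold changes in ACLP-NT were -0.052 for Syn1, -0.040 for Syn2 and 0.030 for Syn3, and in Aducanumab -0.032, 0.031 and -0.10. Vesicle membrane proteins follow. Syp, in the order of libraries given at the start, was at 893, 842, 854 and 785 CPM in saline, 918, 899, 903 and 724.5 CPM in Aducanumab, and 865, 878, 801, 803 and 859.5 CPM in ACLP-NT. Apart from Aducanumab 58 and, less so, saline 38 and ACLP-NT 49 and 53, its libraries lay within 842 to 918 CPM. Sv2a, the binding site of levetiracetam, and Sv2b had log2 fold changes of -0.082 and 0.012 in ACLP-NT and of -0.048 and 0.040 in Aducanumab. Sv2c, the form found mainly in basal ganglia and brainstem, was at 35, 41.6, 36.1 and 37.5 CPM in saline, 29.3, 31.7, 32.2 and 43.4 CPM in Aducanumab, and 34.3, 36.5, 38.5, 38.5 and 42.8 CPM in ACLP-NT. Its highest value was in Aducanumab 58, the library in which most other presynaptic genes were lowest, and its fold change in Aducanumab moved from -0.14 to -0.27 without that library.

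Synaptotagmins sense calcium. Syt1, the sensor of fast release in forebrain neurons, was at 1275, 1041, 1090 and 993 CPM in saline, 1163, 1150, 1172 and 869.5 CPM in Aducanumab, and 1116, 1129, 1084, 976 and 1070 CPM in ACLP-NT. The groups overlapped throughout, and its log2 fold change was -0.033 (SE 0.0920) in ACLP-NT and -0.015 (SE 0.0970) in Aducanumab. Syt7, a slow sensor linked to facilitation, was at 383, 379, 373 and 342.5 CPM in saline, 334, 326, 393 and 346 CPM in Aducanumab, and 394, 400.5, 328, 391 and 408 CPM in ACLP-NT. It was among the 3 genes with the smallest p in ACLP-NT against Aducanumab, with a log2 fold change of 0.14 (95% interval -0.012 to 0.28, unadjusted p 0.0691, adjusted p 1 in edgeR). Syt11, which does not bind calcium, had the lowest spread within groups of the 31 genes (SD 0.0794 on the log2 scale) and was at 653, 562, 594 and 552 CPM in saline, 588, 580, 579 and 518 CPM in Aducanumab, and 554, 566, 580, 550.5 and 581 CPM in ACLP-NT. Saline 18 stood highest and Aducanumab 58 lowest. Syt4, another form without calcium sensing, had log2 fold changes of -0.11 in ACLP-NT and -0.098 in Aducanumab.

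Among the SNARE proteins, Snap25 was at 1274, 1177, 1296 and 1172 CPM in saline, 1333, 1299, 1393 and 971 CPM in Aducanumab, and 1286, 1323, 1220, 1153 and 1383 CPM in ACLP-NT. Vamp2, the vesicle SNARE of most forebrain synapses, was at 804, 792, 745 and 657 CPM in saline, 758, 734, 771 and 648 CPM in Aducanumab, and 737, 803, 702, 679 and 732 CPM in ACLP-NT. The groups overlapped for both genes, with Aducanumab 58 lowest, although the other 3 Aducanumab libraries lay above all of saline for Snap25. Vamp1, which replaces Vamp2 in brainstem, spinal cord and some interneurons, was at 123, 106, 115 and 112 CPM in saline, 118, 158, 116 and 99 CPM in Aducanumab, and 112, 104, 109, 116 and 113 CPM in ACLP-NT. The Aducanumab mean was 123 ± 24.9 CPM (SD, n = 4), while that of saline was 114 ± 7.17 (SD, n = 4). This difference rested on Aducanumab 50, and the log2 fold change went from 0.11 to -0.035 without it.

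Stx1a, which encodes the plasma membrane SNARE syntaxin-1A, had the largest estimates against saline of the 29 genes other than Slc17a6 and Syt2, and the widest intervals of these. It was at 97, 130, 76.8 and 78.2 CPM in saline, 84.2, 74.1, 79 and 63.2 CPM in Aducanumab, and 71.5, 94, 67.3, 70.2 and 78 CPM in ACLP-NT. Group means were 95.5 ± 24.8 (SD, n = 4), 75.1 ± 8.95 (SD, n = 4) and 76.2 ± 10.7 CPM (SD, n = 5). Saline 19 stood far above the rest and saline 18 just above the highest treated library, while saline 32 and 38 lay among the treated libraries. The log2 fold change was -0.32 (SE 0.146) in ACLP-NT with an unadjusted p of 0.0428 and an adjusted p of 0.822 in edgeR, and -0.35 (SE 0.154) in Aducanumab with 0.0417 and 0.9997. Without saline 19 the estimates were -0.14 and -0.16, and without saline 18 they were -0.32 and -0.34. Saline 18 and 19 also had the highest neocortex marker scores (0.52 and 0.72, mean centred log2 CPM, where the other 11 libraries lay between -0.39 and 0.30). All 11 tested neocortex markers lay below saline in each treatment, with medians of -0.32 in ACLP-NT and -0.47 in Aducanumab, and none was at 0 in any library. Across the 13 libraries Stx1a had Pearson's r of 0.74 with that score (permutation p 0.00355, adjusted p 0.066 over 93 relations) and Spearman's rho of 0.43 (permutation p 0.142, adjusted p 0.338), and r was 0.30 (permutation p adjusted 0.702) without saline 18 and 19. With treatment means subtracted r was 0.62 (permutation p 0.0255, adjusted p 0.182), and the relation passed in none of these settings. Leaving out saline 18 and 19 narrows the range of the score, so the lower r cannot show how much rests on them.

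Regulators of SNARE assembly moved little. Unc13a, the Munc13 priming factor, had log2 fold changes of 0.023 in ACLP-NT and -0.039 in Aducanumab. Stxbp5, which encodes tomosyn, an inhibitor of SNARE assembly, was at 130.5, 123, 136 and 121 CPM in saline, 123, 119, 131 and 108 CPM in Aducanumab, and 131, 129.5, 127, 126 and 135 CPM in ACLP-NT. It had the smallest p of the 31 genes in ACLP-NT against Aducanumab (log2 fold change 0.11, SE 0.0525, unadjusted p 0.0554, adjusted p 1 in edgeR). Cplx1, the complexin common in inhibitory and brainstem neurons, was at 523, 432, 470 and 435.5 CPM in saline, 512, 533, 474 and 386 CPM in Aducanumab, and 475.5, 464, 427, 412 and 457 CPM in ACLP-NT. Cplx2 was at 1138, 1230, 1317 and 1182 CPM in saline, 1395, 1229, 1483 and 1169 CPM in Aducanumab, and 1323, 1313, 1185, 1288 and 1382 CPM in ACLP-NT. Its mean was above saline in both treatments, with log2 fold changes of 0.093 (SE 0.0727) in ACLP-NT and 0.12 (SE 0.0765) in Aducanumab and adjusted p of 0.932 and 0.9997 in edgeR. The estimate was 0.062 in ACLP-NT without saline 18 and 0.055 in Aducanumab without Aducanumab 56. The lowest library of the series for Cplx2 was saline 18, at 1138 CPM. Nsf and Napb, the ATPase and its adaptor, had log2 fold changes of 0.056 and -0.023 in ACLP-NT and of 0.046 and -0.032 in Aducanumab.

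Of the active zone scaffolds, Bsn was at 365, 404, 400 and 340.5 CPM in saline, 452.5, 352, 423 and 336 CPM in Aducanumab, and 376, 380, 335, 365 and 394 CPM in ACLP-NT. Aducanumab 24 and 56 lay above all saline and ACLP-NT libraries and the others overlapped, with log2 fold changes of -0.027 in ACLP-NT and 0.051 in Aducanumab. Rims1, the RIM scaffold that tethers calcium channels and vesicles, was at 228, 286, 230 and 218 CPM in saline, 234, 203, 225 and 182 CPM in Aducanumab, and 214, 243.5, 197, 203 and 230 CPM in ACLP-NT. Saline 19 stood alone at 286 CPM, and the log2 fold changes of -0.14 (SE 0.0918, adjusted p 0.904 in edgeR) in ACLP-NT and -0.19 (SE 0.0970, adjusted p 0.9997 in edgeR) in Aducanumab became -0.047 and -0.092 without it. Pclo was at -0.070 and -0.058, and Erc2, which encodes an ELKS protein, at 0.095 and 0.11 in the same comparisons.

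Rab3a, the GTPase of vesicle docking, had log2 fold changes of -0.013 in ACLP-NT and -0.021 in Aducanumab. Rph3a, which encodes its effector rabphilin, was at 280, 305, 257 and 262 CPM in saline, 222, 240, 264.5 and 240 CPM in Aducanumab, and 243.5, 287, 242, 277 and 280 CPM in ACLP-NT. In Aducanumab 3 of 4 libraries lay below all of saline, and Aducanumab 56 overlapped. The log2 fold change was -0.19 (SE 0.0727), a fall of 12.4% that did not pass (unadjusted p 0.0201, adjusted p 0.9997 in edgeR), and it ran from -0.24 to -0.14 as single libraries were left out. Against Aducanumab, Rph3a in ACLP-NT was at 0.14 (SE 0.0691, unadjusted p 0.0671, adjusted p 1 in edgeR), and ACLP-NT against saline gave -0.054 (SE 0.0689).

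**Figure D3:**
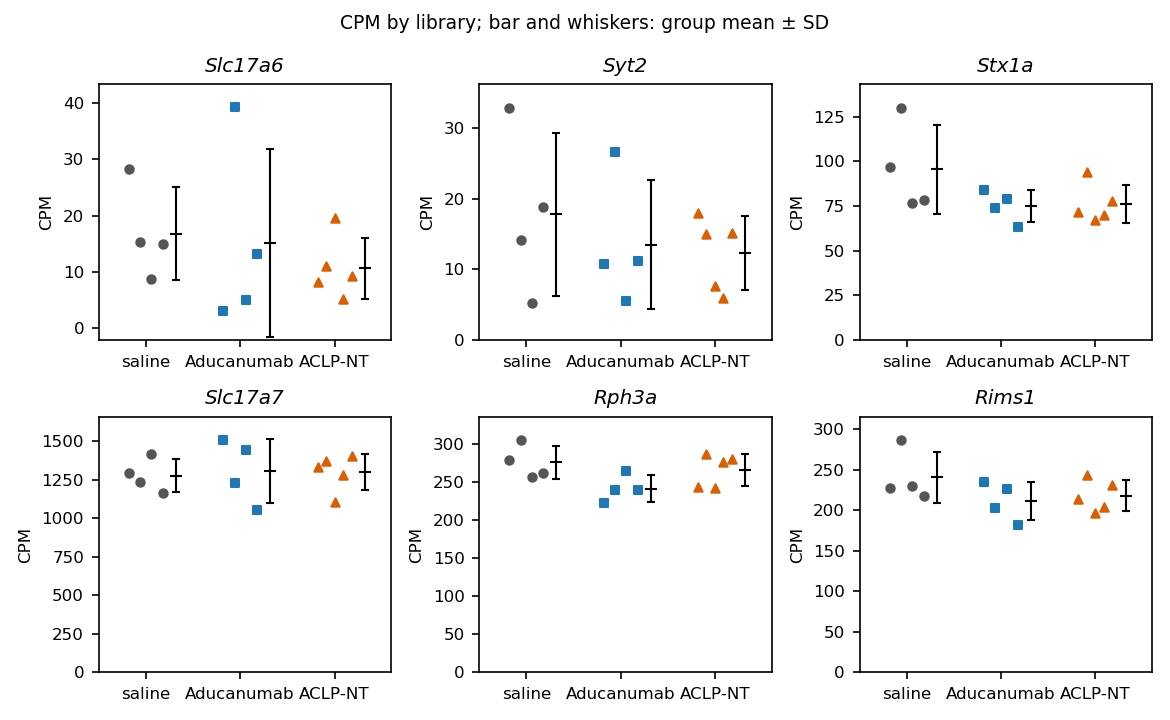
CPM of 6 presynaptic genes by library in the 3 treatment groups, with the group mean and SD beside the points (each axis includes 0). Slc17a6 and Syt2 vary several-fold within each group, Stx1a and Rims1 have 1 or 2 high saline libraries, and Slc17a7 and Rph3a overlap between groups.

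The largest differences between libraries lay within the groups and in 2 genes. Slc17a6 encodes VGLUT2, the glutamate transporter of thalamus, brainstem and subicular complex, and was at 28.3, 15.3, 8.7 and 15 CPM in saline, 2.98, 39.4, 4.97 and 13.2 CPM in Aducanumab, and 8.18, 11, 19.6, 5.27 and 9.22 CPM in ACLP-NT. The lowest and highest libraries of the series, 13.2-fold apart, were both in the Aducanumab group. Syt2, the fast calcium sensor of hindbrain and of parvalbumin interneurons, was at 32.9, 14.2, 5.25 and 18.9 CPM in saline, 10.8, 26.6, 5.49 and 11.2 CPM in Aducanumab, and 17.9, 15.1, 7.72, 5.98 and 15.2 CPM in ACLP-NT, a 6.27-fold range. Saline 18 and Aducanumab 50 were high for both genes, and saline 32, Aducanumab 56 and ACLP-NT 53 were low for both. Slc17a7 was at 1291, 1235, 1416 and 1163 CPM in saline, 1507, 1227, 1444 and 1052 CPM in Aducanumab, and 1329, 1372, 1108, 1281 and 1402 CPM in ACLP-NT, a 1.43-fold range.

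Within groups the SD on the log2 scale was 1.07 for Slc17a6 and 0.906 for Syt2, then 0.248 for Stx1a and 0.199 for Rims2. Over the 31 genes the median was 0.141, against 0.207 over all genes tested, and 28 of 31 lay below that median. At a given abundance the picture differs. The edgeR dispersion of 14 of 31 genes lay below the trend at their abundance (45.2%), while that of 76.9% of all genes did. The log2 fold changes of Slc17a6 were -0.66 (95% interval -1.95 to 0.64) in ACLP-NT and -0.15 (-1.52 to 1.22) in Aducanumab, and those of Syt2 -0.52 (-1.59 to 0.55) and -0.40 (-1.53 to 0.74), so all 4 intervals reached below a log2 fold change of -1. In Aducanumab the Slc17a6 estimate was -1.26 without Aducanumab 50 and 0.22 without saline 18.

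Aducanumab 50, the library highest in Slc17a6 and Vamp1, also had the highest thalamus and midbrain marker score, 1.47 against -0.38, -0.27 and 0.52 in the other Aducanumab libraries, between -0.30 and -0.076 for saline and -0.47 to 0.26 for ACLP-NT. Summed, the 13 markers reached 126 to 147 CPM for saline, 114 to 308 CPM for Aducanumab libraries and 117 to 225 CPM for ACLP-NT, and 1 was at 0 in an ACLP-NT library. All 13 were above saline in Aducanumab, with a median of 0.69. Saline 18, second in Slc17a6, had a score of -0.30. Across the 13 libraries Slc17a6 had r of 0.56 with this score (permutation p 0.0462, adjusted p 0.226) and rho of 0.49 (permutation p 0.0923, adjusted p 0.252), and r was 0.21 without Aducanumab 50 and 58. With the neocortex score r was 0.64 (permutation p 0.0181, adjusted p 0.168) and rho 0.76 (permutation p 0.00381, adjusted p 0.0748). Here r was 0.64 (permutation p 0.0351, adjusted p 0.233) without saline 18 and 19, and 0.60 (permutation p 0.0304, adjusted p 0.202) with treatment means subtracted. Neither passed as computed over the libraries, with adjustment over 93 relations, those of 31 genes with 3 marker lists. With treatment means subtracted, the relation of Slc17a6 with the thalamus and midbrain score had r of 0.78 (permutation p 0.00246, adjusted p 0.0458). Bsn in that setting had r of -0.76 with this score (permutation p 0.00169, adjusted p 0.0393). Without subtraction its r was -0.57 (permutation p 0.0386, adjusted p 0.226). Before subtraction 26 of the 31 genes had r below 0 with this score and 5 above. Of these, 0 passed by r and 0 by rho. The genes share the same libraries, so the signs are not independent, and the share of all genes was not computed. The shuffle of means-subtracted values ignored the groups, so its p-values can be too small.

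Of these 93 relations, 3 passed by Pearson's r and 1 passed with either coefficient, without the 2 libraries farthest from the median score and with treatment means subtracted. This was Rims2 with markers of GABA interneurons. The relations were computed for the presynaptic genes only, so the share of all genes tested that would pass is not known. Rims2 encodes the RIM2 scaffold of the active zone, and was at 79.6, 89.4, 62.5 and 68.2 CPM in saline, 68.2, 78.2, 66 and 57.3 CPM in Aducanumab, and 68.8, 82.1, 69.1, 57.7 and 64.5 CPM in ACLP-NT. It had log2 fold changes of -0.13 (SE 0.117) in ACLP-NT and -0.15 (SE 0.124) in Aducanumab, which were -0.033 and -0.057 without saline 19. Over the 13 libraries r of its log2 CPM with the score of 13 interneuron markers (Gad1, Gad2, Pvalb, Sst and others) was 0.92 (permutation p 1e-05, the smallest that 100000 permutations can give, adjusted p 0.00093). Spearman's rho was 0.93 (permutation p 2e-05, adjusted p 0.00186). Without saline 18 and Aducanumab 50 r was 0.92 (permutation p 3e-05, adjusted p 0.00279), and with treatment means subtracted it was 0.93 (permutation p 1e-05, adjusted p 0.00093). The points share library and depth, and the marker scores are not independent of one another. Aducanumab 58 and ACLP-NT 53 were lowest in the interneuron score (-0.18 and -0.16) and in that of all neurons (-0.20 and -0.12). Saline 18 was high in both (0.19 and 0.16), while saline 19 was at 0.17 and -0.0011. The part of general neuronal content in this relation was not tested. The interneuron score itself spanned -0.15 to 0.19 for saline, -0.18 to 0.20 for Aducanumab libraries and -0.16 to 0.15 for ACLP-NT, with no marker at 0. Rims2 also had r of 0.85 with the neocortex score (permutation p 0.00024, adjusted p 0.0112), and r was 0.71 (permutation p 0.014, adjusted p 0.214) without saline 18 and 19. Sv2a had r of 0.75 with interneuron markers (permutation p 0.00107, adjusted p 0.0332), rho of 0.70 (permutation p 0.00983, adjusted p 0.102) and r of 0.59 (permutation p 0.056, adjusted p 0.294) without saline 18 and Aducanumab 50, where it no longer passed. With treatment means subtracted its r was 0.78 (permutation p 0.00166, adjusted p 0.0393).

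**Figure D4:**
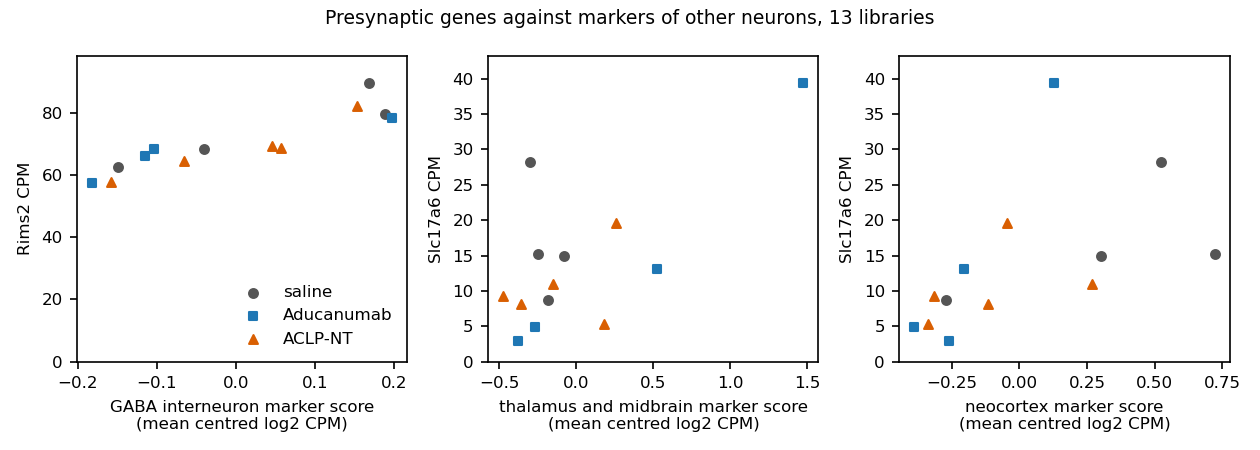
CPM of Rims2 against the GABA interneuron marker score, and of Slc17a6 against the thalamus and midbrain score and the neocortex score, 1 point per library coloured by treatment group. Rims2 rises along the interneuron score in all 3 groups (r 0.92), while for Slc17a6 the highest point, Aducanumab 50, stands apart in both panels.

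In 1 library most presynaptic genes were low together. Aducanumab 58 had the lowest CPM of the 13 libraries for 21 of 31 genes (67.7%), among them Syp, Syt1, Snap25, Vamp2, Slc17a7, Nsf and Napb, where it was the lowest library for 12.2% of all genes tested. Its mean over the 31 genes lay at -0.20 (mean centred log2 CPM), against -0.14 in ACLP-NT 53, the next lowest, and 0.18 in saline 18, the highest. The 10 genes with another lowest library were Syn3, Syt2, Syt4, Syt7, Bsn, Rph3a, Sv2c, Slc17a6, Cplx2 and Erc2. Markers of all neurons, such as Rbfox3 and Map2, were also lowest in Aducanumab 58 (score -0.20, and -0.12 in ACLP-NT 53). The same library had the highest scores of choroid plexus (2.38), meninges and vessels (0.78) and blood (1.12) of the 13. ACLP-NT 53 was at 2.23 for choroid plexus, and saline 38, with a presynaptic mean of -0.043, at 2.28. The part of these tissues in the lower presynaptic values was not tested. Without Aducanumab 58, ACLP-NT against Aducanumab had a median of -0.077 with 25 of 31 genes lower, and 0 passed. As Aducanumab 58 was picked for its low presynaptic values, leaving it out raises most Aducanumab means of these genes by construction. Syn2, Syp, Vamp1 and Cplx1 on the lower side and Sv2c on the higher then had an unadjusted p under 0.05 in edgeR. In this setting 803 of all 22523 genes tested did, and the median over all genes was 0.0004.

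**Figure D5:**
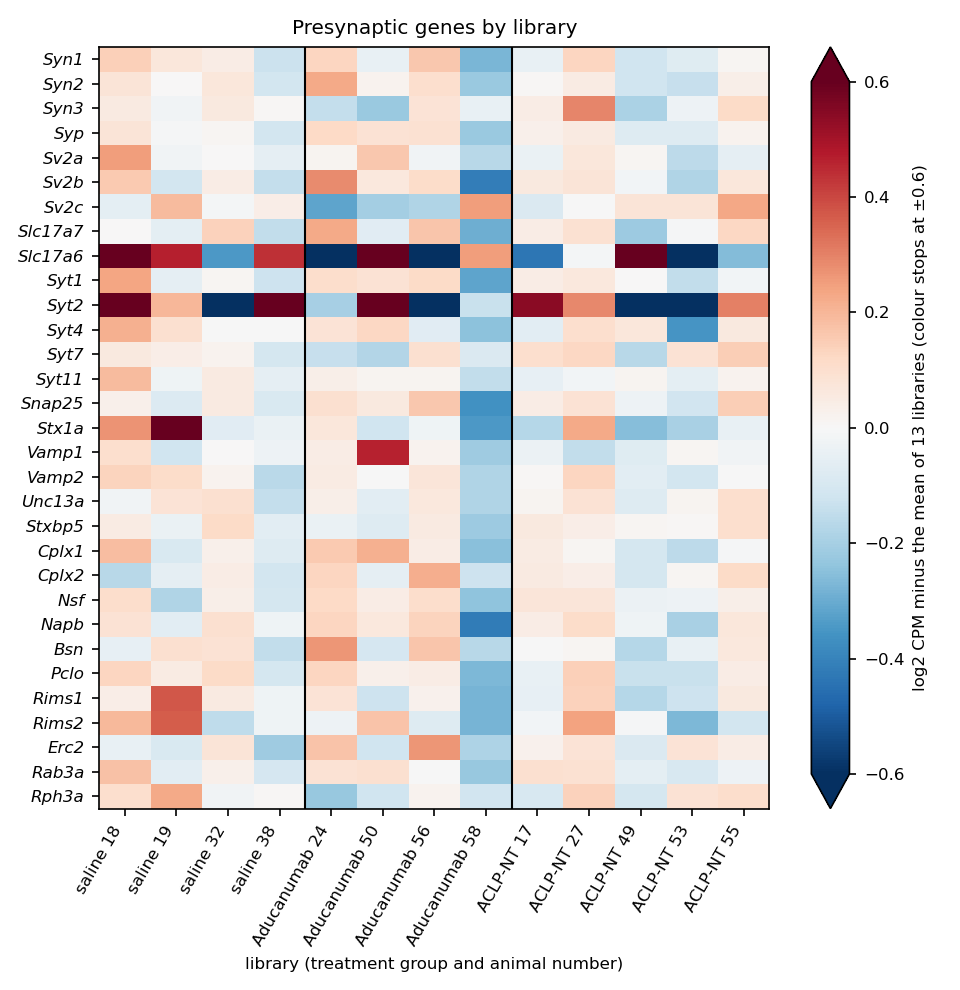
Log2 CPM of each presynaptic gene minus its mean over 13 libraries (colour, red above and blue below), with genes in rows by role and libraries in columns by group. The column of Aducanumab 58 is blue for most genes, Slc17a6 and Syt2 alternate between the ends of the scale, and Stx1a, Rims1 and Rims2 are red in saline 19.

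A further 59 genes of the presynaptic terminal were listed, of which 57 matched the table and were tested. No gene of this list passed in edgeR in the 3 comparisons. Against saline 22 were higher and 35 lower in ACLP-NT (median -0.021; 4 genes or 7.02% at an unadjusted p under 0.05, against 5.88% of all genes tested) and 22 higher and 35 lower in Aducanumab (median -0.016; 4 genes or 7.02%, against 4.68% of all genes). Of this list 61.4% lay below saline in each treatment, where 50.6% of all genes did in ACLP-NT and 48.7% in Aducanumab. Doc2a, a calcium sensor of spontaneous and asynchronous release, had a mean of 17.7 ± 3.46 CPM (SD, n = 4) in saline, 12.3 ± 1.93 (SD, n = 4) in Aducanumab and 12.7 ± 2.44 CPM (SD, n = 5) in ACLP-NT. Its log2 fold changes were -0.48 (SE 0.158) in ACLP-NT and -0.53 (SE 0.168) in Aducanumab, with edgeR adjusted p of 0.746 and 0.9997. Its relative Doc2b was at 0.16 (SE 0.0578) in ACLP-NT against saline and 0.16 (SE 0.0578) against Aducanumab.

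Rims3, a short RIM protein, was at -0.58 (SE 0.236) in ACLP-NT against saline, and Rims4 at -0.27 (SE 0.109) in Aducanumab against saline. Cplx3, a complexin of retina and of the deepest cortical layer, had a saline mean of 5.19 ± 2.44 CPM (SD, n = 4). Its Aducanumab mean was 1.68 ± 0.940 CPM (SD, n = 4). The log2 fold change was -1.63 (SE 0.460, unadjusted p 0.00326, adjusted p 0.938 in edgeR). In ACLP-NT against Aducanumab it was at 0.92 (SE 0.438), and Rimbp2, which links RIM to calcium channels, at 0.14 (SE 0.0644). For Cplx3 in Aducanumab the neocortex markers moved in the same direction, and their part was not tested.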

How the data were processed

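Bulk oligo(dT)-selected RNA of hippocampus was sequenced in 13 libraries, and the labels give 3 treatment groups of 4, 4 and 5 libraries. The deposited table holds counts per gene and library, named so per the file headers and whole numbers in every cell. It also holds FPKM, per the file headers. The submitters' processing notes list StringTie 1.3.4d, HISAT2 2.0.4, edgeR and cutadapt 1.9. How counts were made, on which genome build, with which use of strand and of reads shared by paralogs: not given in the sources used here. Total counts were 53642019 to 69734713, so counting error is small beside the spread between libraries at these levels.

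Here counts were filtered with filterByExpr (22065 genes), scaled by TMM and compared with edgeR 4.0.16 (glmQLFit, glmQLFTest, two-sided, 3 groups in 1 fit), with Benjamini-Hochberg adjustment over all genes and a threshold of 0.05. SE is the absolute log2 fold change over the square root of F. Marker scores are means of centred log2 CPM (prior count 2). Relations used two-sided permutation tests (100000 permutations). Values with treatment means subtracted were shuffled over all 13 libraries regardless of group, so those p-values can be too small. The method was tested on simulated data. Libraries within a group differed beyond counting error (lowest chi-square over its degrees of freedom 13.1). The labels do not say whether the libraries are separate animals beyond a number in each title, so p-values measure the spread between these samples. Genes and lists were chosen with earlier results of these data known. Full values are given for the 3 genes with the smallest p in each comparison, the genes with the highest and lowest spread, and Slc17a6, Slc17a7, Syt1, Syt2, Vamp1, Vamp2, Sv2c, Syp, Snap25, Bsn and Cplx1, and Rims2 was added for its relation to markers. Of the second list, the 3 genes with the smallest p in each comparison are named. Alternatives were RLE and upper quartile scaling, dropping the filter, keeping genes with mean FPKM of 5 or more, DESeq2 1.42.0, limma 3.58.1 on log2(FPKM + 1) and log2(FPKM + 0.1), a robust fit, the 2 groups compared alone, and each library left out.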

Additional observations from a re-analysis of the deposited data

Results flagged for a closer look

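Within a group, 1 library stood far from the others in 5 of 93 combinations of a presynaptic gene and a treatment group, by the size of its gap to the nearest other library relative to the group's range. Chance flags about 1 in 20 groups, so 5 of 93 is near the chance rate. Of the 5, 4 were in Aducanumab 58, where most presynaptic genes were low together, so these 4 are not independent. In Aducanumab 58, Syp was at 724.5 CPM (899 to 918 CPM in the other 3 libraries), Syt1 at 869.5 CPM (1150 to 1172 CPM), Syt11 at 517.6 CPM (579 to 588 CPM) and Napb at 280.4 CPM (391 to 411 CPM). In ACLP-NT 49, Syt7 was at 328.1 CPM, against 391 to 408 CPM in the other 4.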

How the results depend on the processing

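No paired analysis was possible because the groups share no replicate number. In all alternatives run, 0 of 31 presynaptic genes passed in each comparison. DESeq2 called 9 genes of the whole table in ACLP-NT against saline, 18 in Aducanumab against saline and 3 in ACLP-NT against Aducanumab, none of them presynaptic, where edgeR called 0. With single libraries left out, edgeR called 0 to 1 genes in each comparison (1 without saline 32 in both comparisons with saline, and 1 without ACLP-NT 49 in both with Aducanumab). The median log2 fold change of the 31 genes then ran from -0.072 to -0.0014 in ACLP-NT against saline, from -0.082 to 0.026 in Aducanumab against saline and from -0.077 to 0.035 in ACLP-NT against Aducanumab, so its sign changed in the latter comparisons. The number of genes below the dispersion trend ran from 12 to 19. Of 2034 fold changes under alternatives, 115 had the opposite sign and 23 moved by at least 1 SE. Counted by gene and comparison, 50 of 93 pairs changed sign in at least 1 alternative, so the direction of many small estimates is not firm. With a mean FPKM of at least 5, 27 of the 31 genes were tested. The 93 relations with marker scores were computed for the presynaptic genes only. Of these, 3 passed, 5 with treatment means subtracted and 1 without the 2 farthest libraries. The 5 were 2 with the thalamus and midbrain score (Slc17a6 and Bsn), 1 with neocortex (Rims2) and 2 with interneurons (Rims2 and Sv2a). The order of levels by median left 24 neighbouring pairs overlapping. Libraries of a group differed beyond counting error, and depth was not varied. For Slc17a6 and Syt2 the intervals are wide.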
